A study of Mus musculus with 1536 samples.

Results

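The clustered protocadherins are 57 of the 53263 genes in the table of single-cell transcriptomes of mouse raphe serotonin neurons examined here. They were chosen by symbol alone, as every row named Pcdha, Pcdhb, Pcdhga or Pcdhgb with a number, or Pcdhac or Pcdhgc with 1 digit. The row Pcdha11.1, the second row of its symbol, did not match, and the numbers, sets and shares below leave it out. There were 13 members in the alpha cluster, 22 in the beta cluster and 22 in the gamma cluster. Of these, 5 are the C-type genes (Pcdhac1, Pcdhac2, Pcdhgc3, Pcdhgc4 and Pcdhgc5), and the other 52 comprised 11 variable alpha, 22 beta and 19 variable gamma genes. Of the 57 members, 56 had a read in at least 3 cells and entered the comparisons, and the exception was Pcdhb1.

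Clustered protocadherins are cadherin-family proteins of the neuronal surface that bind between cells by like-to-like recognition, most strongly when both cells carry the same set. In the alpha and gamma clusters each member is an alternative first exon, with its own promoter, that is spliced to constant exons shared by the whole cluster, whereas each beta gene is a separate gene without shared exons. In many neurons each cell switches on only some of the variable members, and recognition of an identical set lets the branches of a neuron avoid each other. The C-type genes are regulated differently from the variable members, and Pcdhac2 is known in serotonin neurons as the isoform that spaces their axons in target areas.

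The cells came from C57BL/6J mice 40 to 45 days old that carried Cre under control of the serotonin transporter gene (Sert-Cre in the study, Sert-tdTomato-Cre in the labels) and the Cre reporter Ai14, so that cells with Cre make tdTomato. Single fluorescent cells were sorted into wells and made into Smart-seq2 libraries, which copy full-length polyadenylated RNA and carry no molecular identifiers. The principal dorsal raphe (pDR) dissection held 290 cells on 5 plates, and a second dissection, labelled as all of the dorsal raphe and described in the study as pDR, caudal dorsal raphe (cDR) and median raphe (MR), held 709 cells on 11 plates (the mixed dissection). Both dissections share this genotype, there is no group without it, and cells in which the Sert promoter was active only earlier in life can also carry the label. No label names the animal of a cell, so each dissection is 1 sample, no p-value was computed, and the spread between plates, which may share animals, is given as a description.

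The cells were serotonin neurons by their defining genes. Tph2, which makes the rate-limiting enzyme of serotonin synthesis, was detected in 100% of the 999 cells at a mean of 9608 CPM (the reads of a gene scaled to the same total of reads on genes in every cell), and Slc6a4, the serotonin transporter, in 99.8%. Markers of other cells were low but not absent. The 5 oligodendrocyte genes were all detected and summed to a mean of 67.4 CPM in the pDR and 202 CPM in the mixed dissection, most of it the myelin gene Mbp, and plate SER55 stood apart at 1559 CPM, without which the mixed dissection had 94.2 CPM. The 5 astrocyte genes summed to 4.77 CPM over all cells, with Gja1 the most abundant, the 5 microglia genes to 0.366 CPM (Tmem119), the 4 endothelial genes to 0.925 CPM (Ly6c1) and 5 genes of other neuron types to 0.786 CPM (Th). None of these genes was at 0 in every cell. The median number of reads on genes per cell was 755926 in the pDR and 869546 in the mixed dissection, so the number of detected members is also given with each cell thinned to 250000 reads, which left out 9 shallower cells.

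The 3 clusters lie on chromosome 18 of mm10 between positions 36930184 and 37841873, a span of 911690 bases, with the members in the order alpha, beta, gamma. In the GENCODE M21 annotation the alpha members share the exons at 37156155 to 37156213, 37159265 to 37159353 and 37184946 to 37187657, and the gamma members those at 37825021 to 37825079 and 37833265 to 37833353 and a last exon that starts at 37839903. The counting program used by the authors assigned a read pair to no gene where all of its bases are shared by several genes, so pairs that lie wholly in a constant exon add to no member, and the values of alpha and gamma genes come mainly from the first exon. Of the 22 beta members, 19 have exons shared with no other gene. Levels are therefore compared between genes as mean CPM per kilobase of exon that no other annotated gene overlaps (own exon). Pcdhga10 has no own exon, Pcdha4 has 404 bases of it because of overlapping gene models, and the symbol Pcdha11 belongs to a pair of annotated genes, so no value per kilobase is given for Pcdhga10 and Pcdha11.

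The C-type gene Pcdhac2, whose own exon is at 37143503 to 37146530 in mm10 (3028 bases, first exon, forward strand), had the highest level of the members, both as mean CPM and per kilobase of own exon. It was detected in 99.3% of the cells (992 of 999, exact Clopper-Pearson 95% interval 98.6 to 99.7%) at a mean of 249.6 CPM and a maximum of 771 CPM. Only 2.16% of the 25522 genes with reads in at least 3 cells had a mean CPM as high. Per kilobase of own exon it stood at 82.4 CPM, 6.84-fold above Pcdhac1 and 22.6-fold above the highest variable alpha gene, Pcdha12.

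In the pDR, the mean level of Pcdhac2 in the plates SER12, SER13, SER25, SER39 and SER40 was 233, 229.6, 199, 202 and 207 CPM. In the mixed dissection the lowest plate was at 228 CPM, the median plate at 264 CPM and the highest at 292 CPM. The pDR plates SER12 and SER13 lay inside the range of the mixed plates and the other 3 under it, so the ranges overlapped. Over all cells the mean was 220.4 CPM in the pDR and 262 CPM in the mixed dissection, a log2 ratio of mean CPM + 1 of -0.25.

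Of the other C-type genes, Pcdhgc4, which is required for the survival of many neurons, was detected in 93.5% of cells (interval 91.8 to 94.9%) at a mean of 20.9 CPM, and Pcdhac1 in 85.7% (83.4 to 87.8%) at 30.8 CPM. Pcdhgc5 was detected in 42.8% of cells at 2.98 CPM and Pcdhgc3 in 25.9% at 1.29 CPM. Per kilobase of own exon, the order was Pcdhac2 (82.4 CPM), Pcdhac1 (12.0 CPM), Pcdhgc4 (6.00 CPM), Pcdhgc3 (0.711 CPM) and Pcdhgc5 (0.646 CPM). The last pair was close to Pcdhga12, the highest variable gamma gene at 0.701 CPM per kilobase. In 81.8% of cells (817 of 999, interval 79.2 to 84.1%) Pcdhac2, Pcdhac1 and Pcdhgc4 were detected together.

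Plate means of Pcdhac1 were 22.6 to 29.9 CPM in the pDR (median plate 27.0 CPM) and 29.8 to 37.4 CPM in the mixed dissection (median 32.0 CPM), so that the highest pDR plate lay just above the lowest mixed plate. Those of Pcdhgc4 were 10.5 to 22.6 CPM in the pDR (median 13.4 CPM) and 14.4 to 28.1 CPM in the mixed dissection (median 22.4 CPM). Pcdhgc5 plates were at 1.58 to 4.41 CPM in the pDR and 1.39 to 5.47 CPM in the mixed dissection, and Pcdhgc3 plates at 0.170 to 1.66 CPM and 0.434 to 2.84 CPM. The plates of both dissections thus overlapped for each of the 5 C-type genes. No C-type gene passed 2-fold between the dissections.

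**Figure D1:**
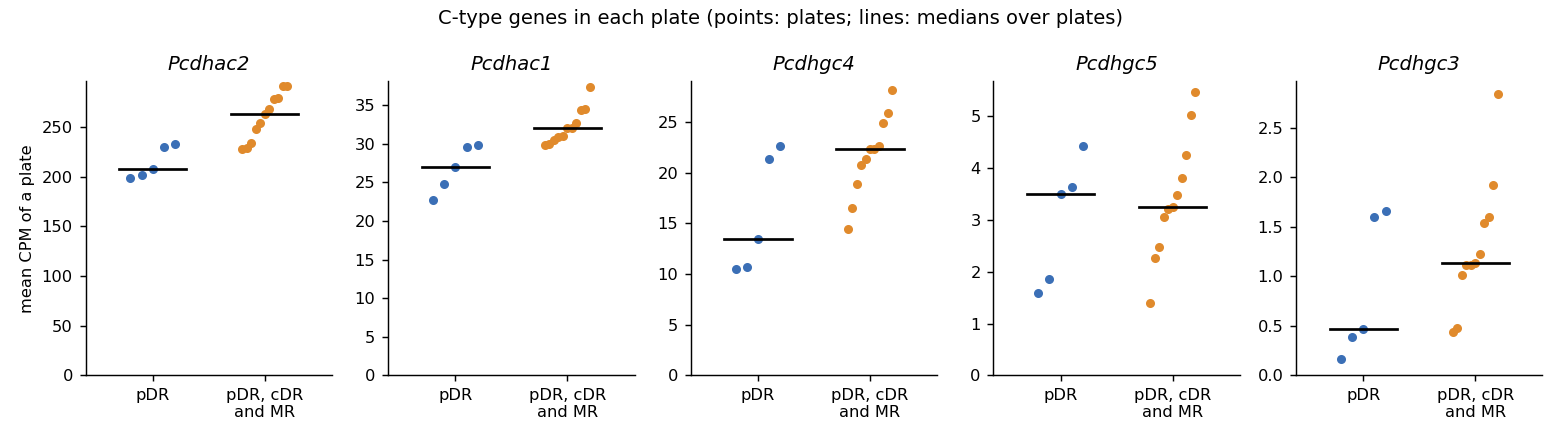
Mean CPM of the 5 C-type genes (vertical axes, 1 panel a gene, each axis starting at 0) in the 5 plates of the pDR and the 11 plates of the mixed dissection, with a line at the median plate. The pDR plates of Pcdhac2 lie between 199 and 233 CPM and the mixed plates between 228 and 292 CPM, with some overlap for every gene.

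Pcdhac2 had no read in 7 cells on 5 plates, 5 of them from the pDR. These cells had a median of 0 members of any kind, 0 of the 7 had a read of Pcdhgc4 and 1 had a read of Pcdhac1. Their median depth was 476456 reads, and their median Tph2 level was 5337 CPM against 9418 CPM in all other cells, that of Slc6a4 1345 against 3660 CPM and that of Fev, a transcription factor of serotonin neurons, 37.2 against 208 CPM. What part depth or RNA quality had in these cells was not tested.

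The alpha cluster was dominated by Pcdhac2. In the 993 cells with a read of any alpha member, Pcdhac2 took a mean of 80.1% ± 13.0 (SD over cells) of the cluster's reads, Pcdhac1 10.2% ± 9.98 and the 11 variable genes together 9.62% ± 9.25. Pcdhac2 held more than 50% of the alpha reads in 972 of the 993 cells. Plate means of its share were between 76.2% (SER55) and 85.5% (SER13), and over the cells of a dissection the mean share was 82.2% in the pDR and 79.3% in the mixed dissection. Counted per kilobase of own exon the share was 76.1%.

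In the gamma cluster the leading C-type gene was less dominant. Pcdhgc4 took a mean of 54.7% ± 30.3 (SD over the 982 cells with a gamma read) of the reads, the variable gamma genes 33.9% ± 29.5, and Pcdhgc4 exceeded 50% in 542 cells. Over all 57 members, the 5 C-type genes together took 81.4% ± 13.1 of the reads (994 cells), with plate means between 75.2% (SER48) and 88.2% (SER13), and Pcdhac2 alone took 66.1% ± 15.1. In summed mean CPM, the C-type genes reached 306 CPM, the variable alpha genes 29.2 CPM, the beta genes 27.7 CPM and the variable gamma genes 14.9 CPM.

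Each of the other 52 members was found in a minority of cells. The share of cells with a read was 3.30 to 28.5% for variable alpha genes (median 11.9%), up to 15.4% for beta genes (median 4.25%) and 1.90 to 27.1% for variable gamma genes (median 8.81%). The median level among the cells in which a gene was detected had itself a median of 13.3 CPM over the variable alpha genes, 14.4 CPM over the beta genes and 5.34 CPM over the variable gamma genes, and for Pcdhb9 it reached 34.3 CPM.

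Within the alpha cluster, the highest variable genes per kilobase of own exon were Pcdha12 (3.65 CPM, in 28.5% of cells), Pcdha7 (1.98 CPM, in 20.3%) and Pcdha4 (1.83 CPM, in 12.6%, over 404 bases), and the lowest was Pcdha1 (0.201 CPM, in 3.30%). Along the chromosome, Pcdha12 is the variable alpha member next to the C-type genes and Pcdha1 the farthest from them. Among the beta genes Pcdhb9 (1.28 CPM per kilobase, in 9.51% of cells), Pcdhb7 (0.903 CPM) and Pcdhb17 (0.685 CPM) led. Pcdhb1, the first gene of the cluster, was lowest, with a read in 2 of the 999 cells. Among the variable gamma genes Pcdhga12 (0.701 CPM per kilobase, in 27.1% of cells), Pcdhga7 (0.630 CPM) and Pcdhga4 (0.626 CPM) led, and Pcdhgb4 (0.0910 CPM) was lowest. Pcdhga12 is also the variable gene next to the C-type genes of its cluster. The reads of alpha and gamma genes come from first exons far from the polyadenylated end and those of beta genes from whole single exons, and the part of this in differences between clusters was not tested.

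**Figure D2:**
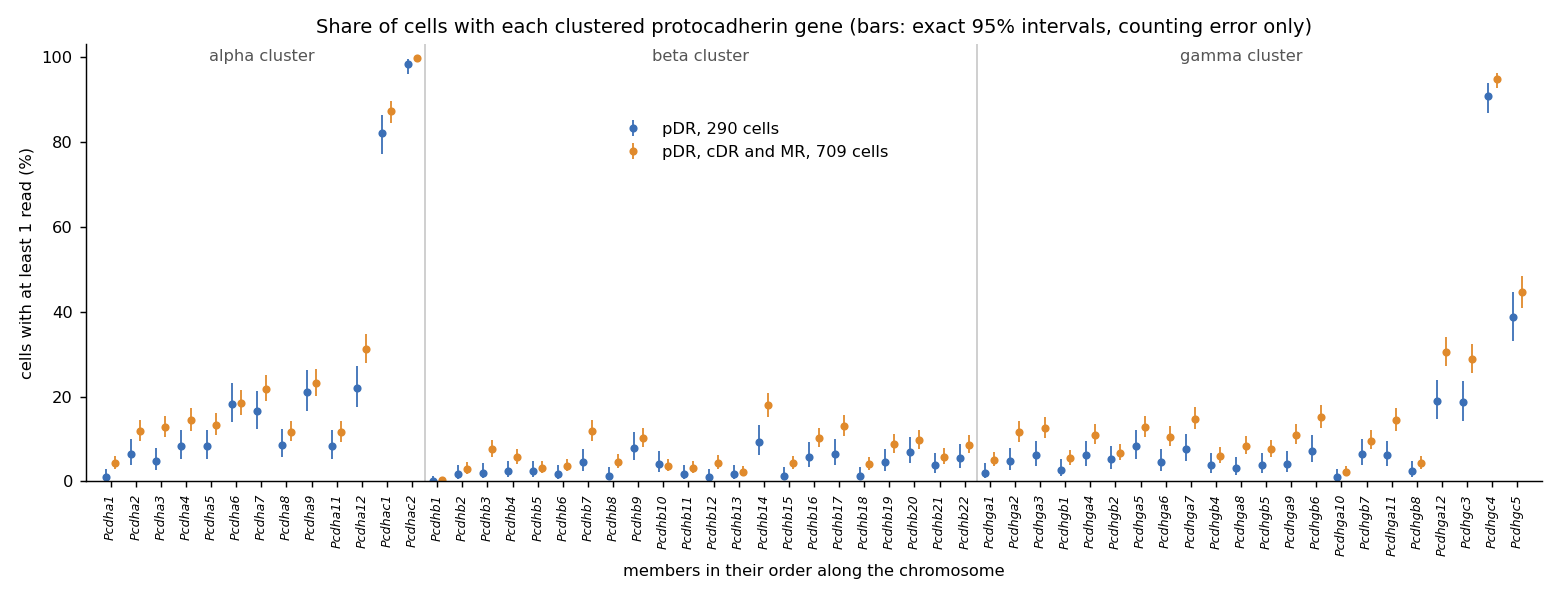
Percent of cells with at least 1 read (vertical axis) of each of the 57 members in chromosomal order, for the 290 pDR cells and the 709 cells of the mixed dissection, with exact 95% intervals that cover counting error only. Pcdhac2, Pcdhgc4 and Pcdhac1 stand above 80% in both dissections, while every beta gene stays under 20%.

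Cells expressed a few variable members each. With 1 read as the limit, a cell had a median of 8 of the 57 members (quartiles 6 and 10, range 0 to 21), of which 4 were C-type and 4 were others. Of the 11 variable alpha genes, 0 were detected in 12.3% of cells, exactly 1 in 35.9%, exactly 2 in 35.3% and 3 or more in 16.4%, up to a maximum of 5. Of the 22 beta genes, 0 were detected in 36.0% of cells and 3 or more in 16.5%, and of the 19 variable gamma genes 22.9% and 25.6%. Only 5 cells had no member at all, and 27 cells (2.70%) had C-type members alone. The mean number was 8.06 ± 3.13 (SD over cells) with 1 read as the limit, 5.83 with 5 reads and 4.77 with 10 CPM.

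Where variable genes of a cluster had at least 10 reads together, 1 gene usually gave most of them. For the variable alpha genes this held in 670 cells, in which the leading gene took a median of 80.0% of the reads, and in 40.4% of them it took over 90%. All 11 variable alpha genes led in some cell, and Pcdha12 did so most often, in 175 cells. For the beta genes (520 cells) the leading gene took a median of 84.8%, 21 genes led in some cell and Pcdhb9 did so most often. For the variable gamma genes (419 cells) the median was 65.5%, 18 genes led and Pcdhga12 did so most often. Without molecular identifiers, several reads can come from 1 molecule, and the part of amplification in these shares was not tested.

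The detected combinations were diverse. Among the 876 cells with a variable alpha gene there were 180 different sets of such genes, and the most common, Pcdha12 alone, was found in 84 cells, followed by Pcdha9 alone in 66. Over all 52 members other than the C-type genes, 967 cells had 886 different sets, and 845 cells (87.4% of the 967) had a set that no other cell had. The number depends on the limit. With 5 reads required, 621 of 922 cells (67.4%) had a set of their own. At equal depth of 250000 reads, 748 of 948 cells (78.9%) did. Members that are expressed but missed also make sets differ, and the part of low detection in these counts was not tested.

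Pairs of members had low correlations over cells. Among the 23 members detected in at least 100 cells there are 253 pairs, and the Pearson correlation of ln(CPM + 1) over the 999 cells had a median of 0.015 and ranged from -0.11 (Pcdha9 with Pcdha12) to 0.27 (Pcdhac2 with Pcdhgc4). The next highest pair was Pcdhac1 with Pcdhac2, at 0.15. These are descriptions over cells that share plates and differ in depth, and in sparse counts such weak values are no finding. Among the 8086 other genes with a mean above 10 CPM, those most like Pcdhac2 over the 999 cells were Gaa (lysosomal alpha-glucosidase, r = 0.59), Aplp1 (amyloid precursor-like protein, 0.59), Ache (acetylcholinesterase, 0.59), Rrp7a (0.58) and Fkbp8 (0.57). The lowest were the mitochondrially encoded mt.Nd4 (-0.48) and mt.Cytb (-0.42). The correlation of Pcdhac2 with the log of the cell's depth was 0.11.

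The first comparison asked how the family differed between the pDR alone and the mixed dissection. No plate held cells of both dissections, and the study describes the dissections as separate sets of experiments. In every comparison between the dissections, plate and preparation therefore cannot be told apart from dissection, and their part was not tested. Fewer members were detected per pDR cell. The mean was 6.35 ± 2.25 (SD over 290 cells) in the pDR and 8.75 ± 3.18 (709 cells) in the mixed dissection. At 250000 reads per cell it was 5.50 ± 1.96 against 7.46 ± 2.70. The plate means at that depth were 4.73, 5.44 and 5.90 for the lowest, median and highest of the 5 pDR plates, and 6.63, 7.26 and 9.64 for the 11 mixed plates. The plate ranges did not overlap. C-type genes contributed little to the gap, with a thinned mean of 3.00 in the pDR and 3.18 in the mixed dissection, whereas the other members went from 2.50 to 4.28 per cell. For 55 of the 56 members compared the share of cells with a read, counted in thinned cells, was lower in the pDR, while 49.7% of all 25522 genes were lower there. Unthinned, it was also 55, against 47.2% of all genes.

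The means shifted in the same direction. The log2 ratio of mean CPM + 1 (pDR over mixed) was below 0 for 53 of the 56 members, against 44.7% of all genes, and its median over the 57 members was -0.37, against 0.01 over all genes tested. The summed mean of the variable alpha genes was 18.4 CPM in the pDR and 33.6 CPM in the mixed dissection, that of the beta genes 17.1 and 32.0 CPM, and that of the variable gamma genes 9.34 and 17.2 CPM. By this ratio 2 of the 56 passed 2-fold, Pcdha3 and Pcdhb7, both lower in the pDR. The background was 2.44% of all genes in either direction and 0.901% lower in the pDR. With 1 CPM added to each mean, a gene below 1 CPM in the mixed dissection cannot pass as lower. Low members could therefore be far apart in mean CPM without passing, as Pcdhb11 was, at 0.0681 against 0.586 CPM. The count does not show that the other members were close. Pcdha3 had a mean of 0.527 CPM in the pDR and 2.51 CPM in the mixed dissection (log2 ratio -1.20, in 4.83% and 12.8% of cells), and its plates did not overlap, at 0 to 0.731 CPM in the pDR and 1.07 to 5.76 CPM in the mixed dissection. Pcdha3 was the 1 member whose plates did not overlap. No share of all genes with such plates is available, so this count cannot be set against a background. Pcdhb7 had 1.29 and 3.93 CPM (log2 ratio -1.11). Without the cells of the mixed dissection that carried Piezo2, the log2 ratio was -1.04 for Pcdha3 and -0.92 for Pcdhb7, which no longer passed (2.1% of all genes did). With a pseudocount of 0.1 CPM, 19 members passed 2-fold (8.88% of all genes did so), and with the mean of ln(CPM + 1) 0 did. For the last setting no share of all genes is available.

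Oligodendrocyte RNA was also higher in the mixed dissection, as given above, and its part in the difference was not tested. Leaving out plate SER55, the plate with most of it, or any other single plate, kept the difference in members per cell between -2.68 and -2.16. Since the dissections differ in the kinds of serotonin neuron they hold, cells with the same markers were also set side by side, a choice made after seeing the data. These cells also came from separate plates in each dissection, so plate and preparation were not separated from dissection there either. At 250000 reads, cells with Trh, the gene for thyrotropin-releasing hormone, had a mean of 4.88 members in the pDR (90 cells) and 5.91 in the mixed dissection (35 cells). Cells with Slc17a8, the vesicular glutamate transporter Vglut3, and without Gad1 and Gad2 had 6.39 (80 cells) and 7.70 (405 cells). Cells with a gene of GABA synthesis, Gad1 or Gad2, and without Trh and Slc17a8 had 5.17 (63 cells) and 6.79 (61 cells). By log2 ratio of mean CPM + 1, 31, 44 and 43 members were lower in the pDR in the 3 sets, against 34.7, 50.3 and 42.9% of all genes. The mean number was lower in the pDR in each set, and the plate ranges overlapped for the first and second set but not for the third (5.00 to 5.24 against 5.60 to 10.2). The sets still differed in Piezo2, which 53 of the 409 Slc17a8 cells and 10 of the 61 Gad1 or Gad2 cells of the mixed dissection carried from 10 CPM, against 0 of those in the pDR. Without the cells that carried it, the mixed dissection had 7.27 members in the Slc17a8 set (352 cells), 6.12 in the Gad1 or Gad2 set (51 cells) and 6.00 in the Trh set (34 cells, against 4.85 in 89 pDR cells). These means were again above those of the pDR, while the plate ranges then overlapped in the third set too (5.00 to 5.24 against 4.75 to 7.33). Members lower in the pDR were 31, 41 and 35 in the Trh, Slc17a8 and Gad1 or Gad2 sets, against 34.4, 49.4 and 41.6% of all genes.

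The second comparison asked how the family differed between kinds of serotonin neuron defined by markers that are not members. A cell carried a marker from 10 CPM and was without it below that level, and each of 8 sets of cells was compared with the other cells of the same dissection. The comparisons within a dissection share cells and are not independent. The set that stood out was the cells with Piezo2, a mechanically gated ion channel, of which the mixed dissection held 106 (603 did not have it), between 3 and 34 per plate. Only 2 cells of the pDR had Piezo2 at that level.

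Piezo2 cells had more clustered protocadherins than any other set. They had a median of 13 members (quartiles 11 and 14.8) against 8 in the other cells of the dissection, and a mean of 12.7 ± 2.83 (SD over 106 cells) against 8.06 ± 2.69 (603 cells). At 250000 reads the means were 10.7 ± 2.48 and 6.89 ± 2.31. The plate means of the Piezo2 cells at that depth were 8.60, 10.6 and 11.9 (lowest, median and highest of 11 plates), and those of the other cells 6.25, 6.85 and 7.76. The number was higher in Piezo2 cells in 11 of 11 plates, and the plate ranges did not overlap. SER48 held the most Piezo2 cells (34), and without this plate the highest mean of the other cells was 7.19. The 14 cells with Piezo2 between 10 and 20 CPM had a mean of 8.64 and the 92 cells at 20 CPM or more 11.0. The 15 cells with a read but under 10 CPM had 7.33. The 588 cells with no read had 6.87, a mean over those of them deep enough to thin.

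**Figure D3:**
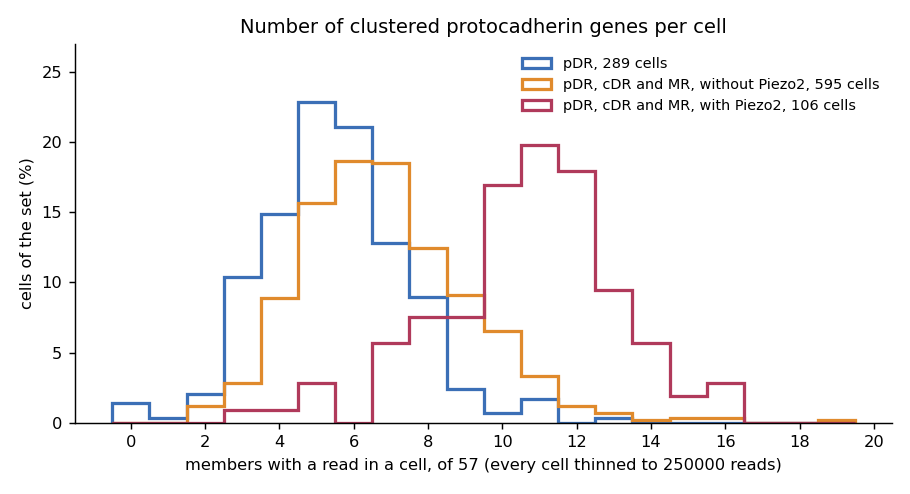
Percent of cells (vertical axis) by the number of the 57 members with a read, each cell thinned to 250000 reads, for 289 pDR cells, 595 cells of the mixed dissection without Piezo2 and 106 with Piezo2. The means are 5.50, 6.89 and 10.7.

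The gain was in the beta and gamma clusters more than in the alpha cluster. At equal depth, Piezo2 cells had a mean of 2.81 variable gamma genes against 1.21 in the other cells, 2.50 beta genes against 1.11, 1.93 variable alpha genes against 1.44, and 3.42 C-type genes against 3.13. The summed mean of the beta genes was 63.5 CPM against 26.5 CPM (higher in 10 of 11 plates), that of the variable gamma genes 34.54 against 14.1 CPM (11 of 11 plates) and that of the variable alpha genes 43.6 against 31.9 CPM (8 of 11 plates). The share of thinned cells with a read was higher in Piezo2 cells for 52 of the 56 members, while 45.8% of all genes were higher. By log2 ratio of mean CPM + 1, 47 of the 56 were above 0, against 44.2% of all genes.

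Among single members, 13 passed 2-fold in Piezo2 cells, 12 higher and 1 lower, where 5.35% of all genes did (1.69% higher and 3.66% lower). With 1 CPM added to each mean, a gene below 1 CPM in the other cells can pass only as higher. Many members were below 1 CPM there, so these counts do not weigh the directions evenly. The largest ratio was that of Pcdhga2, at a mean of 4.02 CPM against 0.704 CPM and in 37.7% against 6.97% of cells (log2 ratio 1.56), and it was higher in 11 of 11 plates. The other members higher were Pcdhga8 (1.26) and Pcdhga3 (1.07) of the gamma cluster, Pcdhb8 (1.45), Pcdhb3 (1.41), Pcdhb9 (1.25), Pcdhb10 (1.15), Pcdhb11 (1.14), Pcdhb15 (1.11), Pcdhb20 (1.11) and Pcdhb12 (1.02) of the beta cluster, and Pcdha6 (1.18) of the alpha cluster, all as log2 ratios. The row named Pcdha11 was lower, with 0.659 against 2.98 CPM (log2 ratio -1.26, lower in 9 of 11 plates). Which of the annotated genes of that symbol this row counts was not settled. The other 11 members that were higher over all cells were each lower in at least 2 of the 11 plates, and Pcdhb12 in 6. Over the 57 members the median log2 ratio was 0.62, against -0.01 over all genes tested. With contrasts averaged within plates, 4 members passed 2-fold in place of 13, and with the mean of ln(CPM + 1) 1 did. No share of all genes is available for these settings, so both counts cannot be set against a background.

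The 3 most abundant C-type genes stayed within 2-fold. Pcdhac2 had a mean of 239 CPM in Piezo2 cells and 265 CPM in the others (log2 ratio -0.15, higher in 2 of 11 plates), Pcdhgc4 20.4 and 22.3 CPM (-0.12) and Pcdhac1 35.1 and 32.0 CPM (0.13). Pcdhgc3 was detected in 52.8% of Piezo2 cells and 24.7% of the others (2.53 and 1.16 CPM, log2 ratio 0.71, higher in 7 of 11 plates). The 5 C-type genes took a mean of 68.1% of all members' reads in Piezo2 cells and 81.8% in the others, and Pcdhac2 75.0% and 80.1% of the alpha reads.

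Depth and the number of detected genes were close. Median depth was 915642 reads in Piezo2 cells and 863589 in the others, and at 250000 reads the median number of all detected genes was 8631.5 and 8650. Summed oligodendrocyte genes were at 79.7 CPM in Piezo2 cells and 223 CPM in the others, astrocyte genes at 2.87 and 5.59 CPM, microglia genes at 1.64 and 0.255 CPM, endothelial genes at 0.310 and 0.697 CPM, and genes of other neuron types at 0.298 and 0.637 CPM. Without plate SER55 the oligodendrocyte sums were 78.1 and 96.7 CPM, and the thinned means were 10.7 members in Piezo2 cells and 6.91 in the others. The part of the other markers in the difference was not tested. Only 2 of the 106 Piezo2 cells also carried the markers of another of the 5 sets in this dissection. Leaving out such cells, the 104 Piezo2 cells had a thinned mean of 10.8 members and 236 cells in no set had 6.89. Without the Piezo2 cells, the mixed dissection still had more members per cell than the pDR, by 1.71 in place of 2.41 (8.06 against 6.35).

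**Figure D4:**
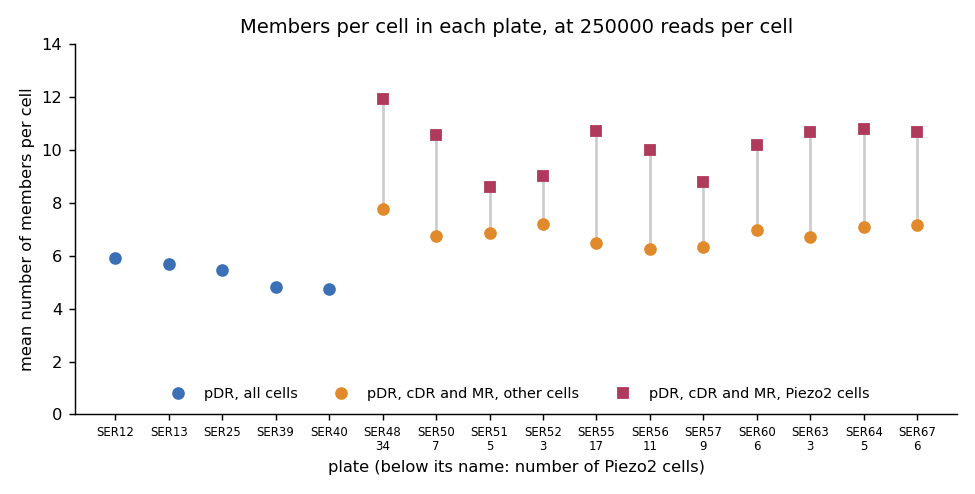
Mean number of members per cell (vertical axis, of 57, at 250000 reads per cell) in each plate, for the pDR (5 plates), and in the mixed dissection (11 plates) for cells with Piezo2 and the other cells, joined by a line. Piezo2 cells are higher in each of the 11 plates, from 8.60 to 11.9 against 6.25 to 7.76, and all 5 pDR plates lie lower still, at 5.90 or under.

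The other sets of the mixed dissection showed smaller shifts. Cells with Irx2, a homeobox transcription factor, (136 cells) had 0 members past 2-fold, where 1.51% of all genes passed, and a thinned mean of 7.01 members against 7.56. Cells with Crhr2 and Npy2r, receptors of corticotropin-releasing factor family peptides and neuropeptide Y, (106 cells) had 1, Pcdhga2, lower at 0.108 against 1.39 CPM and in 10 of 10 plates (1.42% of all genes passed, and 1.09% were lower). Cells with Rorb, a nuclear receptor, and Gal, the gene for galanin, without Npy2r (74 cells) had 1, Pcdhb7, lower at 1.48 against 4.21 CPM (1.33% of all genes passed, and 1.11% were lower). Cells with Npas3, a transcription factor, and Htr1d, a serotonin receptor, (106 cells) had 2, Pcdhb3 and Pcdhb8, both lower (1.15% of all genes passed, and 0.952% were lower). Pcdhb8 was detected in 0 of these 106 cells, so that a share of at most 2.83% is allowed by counting. In this set 50 of the 56 members had a log2 ratio below 0, against 60.5% of all genes. The last set had the fewest members of the 5 sets, a thinned mean of 6.27 against 7.67, with plate means higher in 1 of 10 plates. Oligodendrocyte genes summed to 107 against 224 CPM in the Irx2 set, 55.0 against 227 CPM in the Crhr2 and Npy2r set, 42.1 against 220.2 CPM in the Rorb and Gal set and 71.0 against 225 CPM in the Npas3 and Htr1d set. Without plate SER55 they were 109 against 90.7, 53.4 against 101, 43.2 against 99.9 and 65.2 against 99.4 CPM, and the Npas3 and Htr1d set then had a thinned mean of 6.26 members against 7.64. The part of these genes in the other shifts was not tested. The Piezo2 cells are among the cells these sets were compared with. With them, the thinned mean was 7.17 against 7.51 in the Crhr2 and Npy2r set and 7.15 against 7.49 in the Rorb and Gal set. Without them, it was 7.17 against 6.82 and 7.15 against 6.85, so that the direction turned. It also turned in the Irx2 set, to 7.01 against 6.85, while the Npas3 and Htr1d set had 6.29 against 7.01. Without the Piezo2 cells, 0 members passed 2-fold in the Irx2, Rorb and Gal, and Npas3 and Htr1d sets (1.4, 1.28 and 0.913% of all genes passed). Pcdhb7 in the Rorb and Gal set then had a log2 ratio of -0.89 and Pcdhb3 in the Npas3 and Htr1d set one of -0.78. In the Npas3 and Htr1d set Pcdhb8 was at 0 against 0.887 CPM, and in the Crhr2 and Npy2r set Pcdhga2 was at 0.108 against 0.832 CPM. With a pseudocount of 1 CPM, a gene below 1 CPM in the other cells cannot pass 2-fold lower, so the loss of these calls does not show a smaller difference. In the Crhr2 and Npy2r set 1 member passed (1.23% of all genes), Pcdhb8, higher at 2.08 against 0.447 CPM.

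In Irx2 cells, Pcdhgc4 was higher (26.5 against 21.0 CPM, log2 ratio 0.32) in 10 of 11 plates and Pcdhac1 lower (24.9 against 34.3 CPM, -0.45) in 10 of 11 plates. Neither passed 2-fold. Of the variable gamma genes together, Crhr2 and Npy2r cells had 9.33 CPM against 18.6 CPM, lower in 10 of 10 plates, and the Npas3 and Htr1d cells 8.42 against 18.7 CPM, higher in 1 of 10.

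Within the pDR, Trh cells (90 against 200) had 3 members past 2-fold, the beta genes Pcdhb14, Pcdhb19 and Pcdhb22, all lower (2.01% of all genes passed, and 0.964% were lower), and 41 of the 56 members had a log2 ratio below 0, against 52.5% of all genes. Pcdhb14 was at 0.631 against 2.59 CPM and lower in 5 of 5 plates, as was Pcdhb19 (0.0395 against 1.33 CPM), while Pcdhb22 (0.205 against 1.69 CPM) was lower in 4 plates and higher in 1. Cells with Slc17a8 and without Gad1 and Gad2 (81 against 209) had 4, all beta genes and all higher, where 2.03% of all genes passed and 0.764% were higher, and 38 of the 56 members had a log2 ratio above 0, against 42.3% of all genes. Pcdhb19 (2.64 against 0.271 CPM) was higher in 4 of 5 plates and lower in 1, and Pcdhb10 (2.193 against 0.555 CPM) higher in 3 and lower in 1. Pcdhb7 (2.79 against 0.705 CPM) was higher in 2 plates and lower in 1, and Pcdhb22 (2.91 against 0.580 CPM) was higher in 2 and lower in 3, so that its direction differed between plates. The beta genes together were at 28.9 CPM against 12.6 CPM, higher in 5 of 5 plates, and in Trh cells at 10.4 against 20.2 CPM, higher in 1 of 5. The number of members per cell at 250000 reads was 6.39 against 5.16 in Slc17a8 cells, higher in 4 of 5 plates, and 4.88 against 5.78 in Trh cells, higher in 1 of 5. The cells of 1 set are among those that another was compared with. Cells with Gad1 or Gad2 and without Trh and Slc17a8 (63 against 227) had 3, with Pcdha7 and Pcdhb7 lower and Pcdhb8 higher (1.33% of all genes passed, 0.521% higher and 0.811% lower). Pcdha7 was lower in 4 of 5 plates. Pcdhb7 was detected in 0 of the 63 cells, so that counting allows at most 4.76%, and was lower in 3 plates and higher in 0. Pcdhb8 was detected in 3.17% of these cells against 0.881% of the others (1.67 against 0.166 CPM), and was higher in 2 plates and lower in 2. Endothelial genes summed to 4.13 against 0.498 CPM in Trh cells and 0.217 against 2.17 CPM in Slc17a8 cells. In Gad1 or Gad2 cells they were at 1.16 against 1.75 CPM. In the same order of sets, oligodendrocyte genes were at 74.4 against 64.2, 70.1 against 66.3 and 44.3 against 73.8 CPM. Genes of other neuron types were at 2.42 against 0.760, 0.674 against 1.51 and 1.19 against 1.30 CPM. The part of these markers in the pDR shifts was not tested.

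Pcdhac2 stayed within 2-fold in each of the 8 sets. Its log2 ratio ranged from -0.30 (Slc17a8 cells, 189 against 233 CPM, higher in 1 of 5 plates) to 0.23 (Trh cells, 245 against 209 CPM, higher in 4 of 5 plates), and it was detected in 95.2 to 100% of the cells of every set. In each of the 8 sets some plates were higher and some lower.

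With a pseudocount of 0.1 CPM in place of 1, which gives low genes larger ratios, 33 members passed 2-fold in Piezo2 cells (15.3% of all genes), 9 in Irx2 cells (8.15%), 15 in Crhr2 and Npy2r cells (7.76%), 11 in Rorb and Gal cells (8.96%) and 20 in Npas3 and Htr1d cells (8.04%). In the pDR it was 22 in Trh cells (11.6% of all genes), 21 in Slc17a8 cells (11.9%) and 22 in Gad1 or Gad2 cells (11.5%). With the mean of ln(CPM + 1), 0 members passed in 7 of the 8 sets, and no share of all genes is available for that setting.

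**Figure D5:**
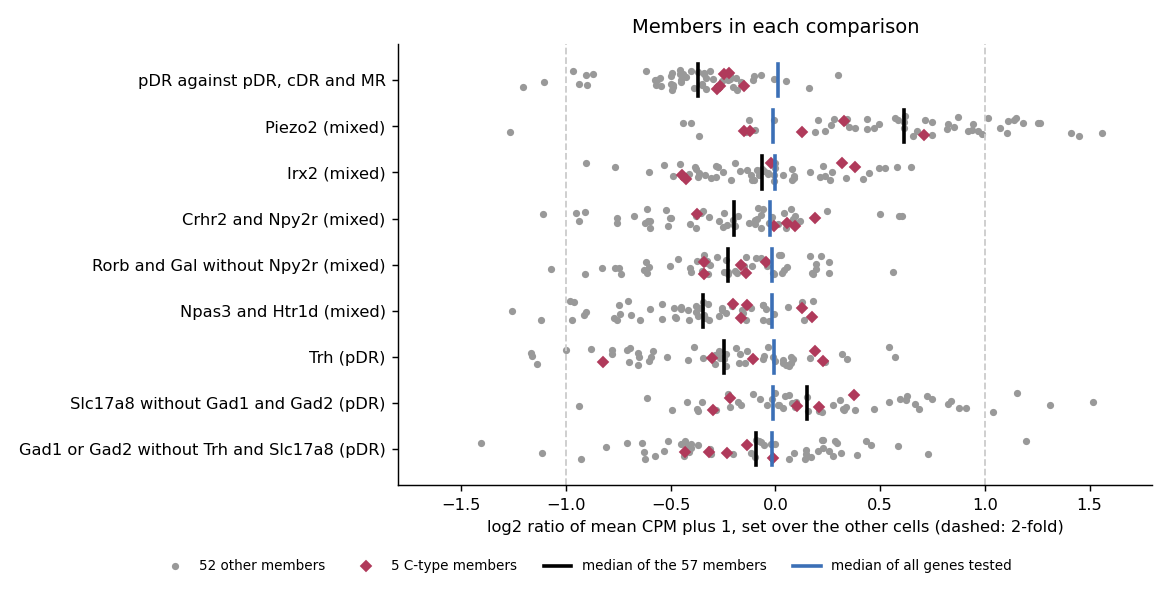
Log2 ratio of mean CPM + 1 (horizontal axis) of the 57 members in the dissection comparison and the 8 marker comparisons, with the 5 C-type genes as diamonds, lines at the median of the members and of all 25522 genes tested, and dashed lines at 2-fold. The members' median is -0.37 for the pDR and 0.62 for Piezo2 cells, while that of all genes lies near 0 in each comparison.

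Genes that act on or with the clusters were measured from 3 lists. The 11 architecture genes, Ctcf and genes of cohesin and its regulators, which loop enhancers to the promoters of the clusters, were all detected in at least 50% of cells (between 74.5 and 99.2%). Smc3 (76.9 CPM) and Mau2 (56.1 CPM) were highest, Stag1 (9.88 CPM) lowest, and 0 of the 11 passed 2-fold in any of the 9 comparisons, where 9.39% of all genes passed in at least 1. Of the 9 genes of silencing and DNA methylation, 7 were detected in at least 50% of cells and 0 passed 2-fold. At that share of all genes, lists this short can hold few or none, so these counts do not set either list apart. Dnmt3a (42.9 CPM), a de novo DNA methyltransferase, was highest, and Dnmt3b, another de novo methyltransferase, was detected in 0.501% of cells.

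Of the 16 signalling genes and partners, 14 were detected in at least 50% of cells, with Rac1 (214 CPM) and Cyfip2 (187 CPM) of the actin-regulating WAVE pathway highest and the kinase gene Ptk2b (1.35 CPM) lowest, and 5 passed 2-fold in at least 1 of the 9 comparisons, as 9.39% of all genes did. Ret, a receptor tyrosine kinase known to bind clustered protocadherins, was higher in the pDR (41.4 against 11.4 CPM, log2 ratio 1.78), as were Adam10, a protease that cleaves them (51.7 against 19.1 CPM, 1.39), and Marcks (125 against 59.1 CPM, 1.07). Ret was lower in Piezo2 cells (1.99 against 13.0 CPM), Irx2 cells (3.05 against 13.3 CPM), Rorb and Gal cells (3.41 against 12.3 CPM) and Slc17a8 cells (14.5 against 51.8 CPM), and higher in Trh cells (83.0 against 22.6 CPM). Nlgn1, a synaptic adhesion gene, was lower in Piezo2 cells in 11 of 11 plates (7.44 against 22.4 CPM) and higher in Irx2 cells (36.1 against 16.3 CPM), where Marcks was lower (27.3 against 66.6 CPM). Ptk2b was lower in Slc17a8 cells (0.676 against 2.44 CPM).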

How the data were processed

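The authors sorted single tdTomato+ cells into 96-well plates, made Smart-seq2 libraries and sequenced pairs of reads. Per the submitters' processing notes, reads were demultiplexed with bcl2fastq 2.19.0.316, aligned to mm10 (GRCm38) with STAR 2.6.1a and counted with HTSeq 0.11.2. The annotation version is not given in the sources used here. The deposited values are CPM, read counts scaled to the same total in each cell: the authors counted read pairs without regard to strand in the intersection-nonempty mode, removed Y-linked genes and scaled each cell. The table holds 999 of the 1536 labelled cells, and cells had at least 50000 reads and 300 genes. Whole reads were recovered from the CPM steps (100% of values within 0.001 of a whole number), no 2 cells were identical, and no doublet caller was run, since cells were sorted singly. With no strand, reads of a member and of an antisense gene cannot be told apart.

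The members and lists were chosen with earlier results of these data known. Genes with a read in at least 3 cells were compared by the log2 ratio of mean CPM + 1, and 2-fold was called past a log2 ratio of 1 in size. Plates entered within-plate values with at least 3 cells of each set. Depth was 96834 to 2780443 reads per cell, and thinning to 250000 reads was drawn with a fixed seed. No test was run, because the labels name no animal. Intervals are exact Clopper-Pearson intervals (95%) and, like the limit of 3 counts behind a share of 0, cover counting error only. Exon lengths and coordinates were taken from GENCODE M21. Tested on simulated data for the dissection comparison (25522 genes, of which 200 were given a log2 ratio of 2), the comparison found 200 of the 200 and 0 of the unchanged genes. The changed genes had a mean of at least 1 CPM and were raised in the pDR, and no differences between plates were simulated. The median of the mean levels of the 52 members other than C-type was 0.864 CPM. The simulation therefore does not show how well smaller or downward shifts of low members are found. The genes named are the C-type genes, the 3 highest and the lowest other members per kilobase in each cluster, members past 2-fold, the genes most and least correlated with Pcdhac2, the markers, the extremes and called genes of the regulator lists, and genes that overlap members. Python 3.11.15, NumPy 2.4.6, SciPy 1.17.1, pandas 2.3.3 and matplotlib 3.10.9 were used. Alternatives were another detection limit, thinning, another pseudocount, the mean of ln(CPM + 1), the mean of plate means, within-plate contrasts, a mean of at least 1 CPM, markers from 1 read and leaving out each plate. Sequences of the members and 1 gene that the naming rule picked from a regulator list are not reported here.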

Additional observations from a re-analysis of the deposited data

Results flagged for a closer look

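Reads were also found on rows that are not members, above the limit that a count of 0 allows. The row Pcdha11.1, the second row of that symbol in the table, had a read in 21.0% of cells at a mean of 1.12 CPM. It is an alpha row that the choice by symbol left out, since both annotated genes of the symbol are protein-coding alpha genes. The numbers of variable alpha genes per cell, their sets and the alpha shares given above do not count it. The other rows are annotated genes that lie on the members' exons. Gm10544, which overlaps Pcdha11 on the opposite strand, had a read in 31.6% of cells (2.45 CPM), and Gm10545, antisense to Pcdha11 and Pcdha12, in 9.31% (0.340 CPM). The pseudogene Gm18150, also on Pcdha11, had a read in 0.701% of cells. Gm26672, which overlaps Pcdhga10, Pcdhga11, Pcdhga12 and Pcdhgb7 on the opposite strand, had a read in 7.81% of cells (0.450 CPM). BC037039, antisense to Pcdhgc3, was found in 4.90% of cells, Gm37165, antisense to Pcdhga7 and Pcdhga8, in 2.80%, and Gm37446 in 1.602%. Since counting used no strand, how reads divide between these genes and the members was not tested. The values of Pcdha11, whose gene was not settled, and of Pcdhga10, which has no own exon, are therefore uncertain.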

How the results depend on the processing

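Of 570 alternative values of 25 results, 496 stayed within the spread between plates or within 1.5 times the count, and 74 moved. Of these values, 400 left out 1 plate, and 21 of them moved. Of the other 170, from changed settings or sets of cells, 53 moved. A reversal was counted only for a Pcdhac2 log2 ratio of at least 1 in size. None was that large, so none could be found. The sign of this ratio did change in the Gad1 or Gad2 set, between -0.06 and 0.07 as plates were left out. Members per cell in the pDR and the mixed dissection (6.35 and 8.75) were 4.61 and 6.33 with 5 reads, 3.81 and 5.16 with 10 CPM and 5.50 and 7.46 with thinning. Their difference was -1.35 with 10 CPM and -1.23 in Trh cells, and in cells with the same markers but without Piezo2 it was -1.36 (Trh), -1.26 (Slc17a8) and -1.21 (Gad1 or Gad2). The difference between Piezo2 and other cells (4.65) was 3.23, 2.20 and 3.78 with 5 reads, 10 CPM and thinning. The share of Pcdhac2 per kilobase was 76.1%. Counts of members past 2-fold moved most. With a pseudocount of 0.1 CPM they were 19 for the dissections and 33, 9, 15, 11, 20, 22, 21 and 22 for Piezo2, Irx2, Crhr2 and Npy2r, Rorb and Gal, Npas3 and Htr1d, Trh, Slc17a8, and Gad1 or Gad2. As a mean of plate means they were 4 for the dissections, 8 for Piezo2, 2 for Rorb and Gal and 5 for Npas3 and Htr1d. With the mean of ln(CPM + 1) they were 1 for Piezo2 and 0 for the dissections and the other sets. Within plates they were 4, 1, 5, 5, 6, 5, 2 and 1 in the order of sets above. Among genes of mean at least 1 CPM they were 5 for Piezo2, 0 for Crhr2 and Npy2r and 1 for Npas3 and Htr1d. That filter leaves fewer members to compare, and their number is not given here. These counts therefore cannot be set against those without the filter. With markers from 1 read the counts were 3 for Crhr2 and Npy2r, 0 for Rorb and Gal and 2 for Slc17a8. Without the Piezo2 cells they were 1 for the dissections and 0 for Rorb and Gal and for Npas3 and Htr1d. Shares of all genes are given above for the pseudocount of 0.1 CPM and for leaving out the Piezo2 cells. For the other settings, and for the left-out plates below, none is available, so those counts cannot be set against a background. The cause of these moves was not tested.

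Leaving out 1 plate at a time, the counts ranged over 2 to 4 for the dissections (4 without SER12 or SER50), 11 to 16 for Piezo2, 0 to 2 for Irx2, 1 to 3 for Crhr2 and Npy2r, 0 to 2 for Rorb and Gal (0 without SER48, SER55 or SER63), 2 to 4 for Npas3 and Htr1d, 3 to 5 for Trh, 3 to 6 for Slc17a8 and 3 to 5 for Gad1 or Gad2. The number per cell ranged over 6.07 to 6.47 in the pDR and 8.51 to 8.87 in the mixed dissection, and the Piezo2 difference over 4.24 to 4.77. For the dissections, no paired analysis was possible because replicate numbers only name cells and the labels tie no cell of 1 dissection to a cell of the other. The marker sets were also compared within plates, as given above. Depth limits the detection of low members: a gene without a read in a cell was not detected there at its depth, and is not shown to be absent.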
